A study of Mus musculus with 51 samples.

Results

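The small leucine-rich proteoglycans (SLRPs) are a family of matrix proteins, and 10 of their genes were followed by name through bone RNA-seq, 5hmC and histone data: Bgn, Dcn, Aspn, Lum, Fmod, Omd, Kera, Prelp, Ogn and Chad. All 10 were found among the 23358 entries of the vitamin C (VitC) femur data and among the 25938 genes of the Tet femur data. The first experiment used femurs of 20 week old C57BL/6 mice in 3 groups of 3 libraries. WT mice make VitC themselves, VitC+ mice are homozygous for the Gulo tm1Mae allele, which blocks VitC synthesis, and drank 3.3 g/L VitC for 20 weeks, and VitC+/- mice carry the same alleles and drank it for 15 weeks only, so that both Gulo-/- groups differ in the supply of VitC. The second used femurs of 11 week old C57BL/6 mice on a standard diet, with 3 libraries each from mice with floxed Tet1, Tet2 or both (Tet1 cKO, Tet2 cKO, Tet1/2 cKO) and from controls (Ctrl), all of which expressed Prrx1-Cre. Prrx1-Cre acts in limb mesenchyme and its descendants, so blood cells of the femur keep their Tet genes. Peaks of 5hmC, the product of TET enzymes, came from hMeDIP-seq of femurs (VitC+ and VitC+/-, Ctrl and Tet1/2 cKO) and of the MC3T3-E1 line, mouse calvarial osteoblasts grown for 28 days with 4 mM β-glycerophosphate and with (VitC+) or without (VitC-) 50 µg/ml VitC. Peaks of the repressive marks H3K27me3 and H3K9me3 came from MC3T3-E1 cells grown with or without VitC for 7 days.

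SLRPs have a core of leucine-rich repeats, bind collagen fibrils and help to set their diameter and spacing, and several hold growth factors of the TGF-beta family in the matrix. Biglycan (Bgn), decorin (Dcn) and asporin (Aspn) form class I, the first of which carry chondroitin or dermatan sulfate chains. Lumican (Lum), fibromodulin (Fmod), osteomodulin (Omd), keratocan (Kera) and Prelp form class II, many with keratan sulfate, osteoglycin (Ogn) belongs to class III, and chondroadherin (Chad) is a cartilage protein of the wider family. In bone, biglycan and decorin are the best known members, and TET enzymes need VitC as a cofactor for full activity.

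The genes lie in 6 separate regions of the mm10 genome, given here with RefSeq gene ends. Dcn (chr10:97479500-97518163), Lum (chr10:97565501-97572703) and Kera (chr10:97606962-97613688) stand in a row on the plus strand of chromosome 10. Aspn (chr13:49544443-49567565), Omd (chr13:49582462-49592612) and Ogn (chr13:49608015-49624501) do so on chromosome 13. Fmod (chr1:134037254-134048280, plus strand) and Prelp (chr1:133910304-133930102, minus strand) lie near each other on chromosome 1, Chad (chr11:94565047-94569127) on chromosome 11 and Bgn (chrX:73483601-73495936) on the X chromosome. Windows of 30 kb around neighbours overlap, so their peaks are partly the same peaks.

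Stretches of sequence are shown for Dcn, the member whose RNA passed the test between the Gulo-/- groups. They are also shown for Fmod, the member locus with the lowest ratio of 5hmC peak length between these groups. They are taken from the mm10 plus strand, 5′ to 3′, and capitals mark each CpG, the site that carries most 5hmC. The first is the middle 300 bases (chr10:97499616-97499915) of the strongest intron peak of Dcn in VitC+ femurs, which held 4 CpG and was 70.3% repeat-masked. The second and the third come from the intron peaks of Fmod that were listed in VitC+ and had no overlapping peak in VitC+/- femurs. The second is a whole peak (chr1:134037902-134038151) and the third is the middle 300 bases (chr1:134041568-134041867) of a peak of 352 bp (chr1:134041542-134041893), with 3 CpG each. The second was free of masked repeats and the third was 56.7% masked. The last (chr1:134037004-134037253) is the 250 bases upstream of the Fmod start in RefSeq (GRCm38.p6), with 2 CpG, which lay inside a 5hmC peak of MC3T3-E1 cells without VitC.
Dcn intron peak: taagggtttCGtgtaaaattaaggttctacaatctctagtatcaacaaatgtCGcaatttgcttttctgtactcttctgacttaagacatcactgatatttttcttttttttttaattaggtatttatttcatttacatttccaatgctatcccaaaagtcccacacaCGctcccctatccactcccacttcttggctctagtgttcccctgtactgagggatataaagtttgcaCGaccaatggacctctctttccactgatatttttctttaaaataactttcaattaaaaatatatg
Fmod first intron peak: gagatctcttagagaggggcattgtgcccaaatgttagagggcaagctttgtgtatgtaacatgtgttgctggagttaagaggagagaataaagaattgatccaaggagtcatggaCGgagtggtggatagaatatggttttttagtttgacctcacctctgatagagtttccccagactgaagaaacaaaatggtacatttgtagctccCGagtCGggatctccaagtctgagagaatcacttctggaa
Fmod second intron peak: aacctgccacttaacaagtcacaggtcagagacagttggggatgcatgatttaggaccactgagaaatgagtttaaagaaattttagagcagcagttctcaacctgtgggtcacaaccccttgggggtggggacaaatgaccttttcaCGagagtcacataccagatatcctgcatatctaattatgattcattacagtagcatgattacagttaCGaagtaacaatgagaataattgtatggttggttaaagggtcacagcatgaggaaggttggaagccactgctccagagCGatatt
Fmod upstream: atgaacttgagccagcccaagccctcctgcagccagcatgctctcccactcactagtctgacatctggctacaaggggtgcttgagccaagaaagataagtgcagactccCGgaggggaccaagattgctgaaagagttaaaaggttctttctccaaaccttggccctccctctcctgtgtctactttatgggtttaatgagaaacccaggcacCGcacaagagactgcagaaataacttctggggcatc

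Over all 371568 peaks of VitC+ femurs the median number of CpG in the middle 300 bases was 2, and over the 142 peaks in the SLRP windows it was 3. RefSeq promoters of 300 bases (250 before and 50 after the start) were given for 8 members and not for Dcn and Lum. They held 1 CpG in Kera and Omd, 3 in Fmod and Aspn, 4 in Ogn, 7 in Prelp, 9 in Bgn and 13 in Chad, beside a median of 7 over all 32851 promoters. TATAAA, searched on both strands, was found in the promoters of Aspn, Ogn and Chad and in 13.6% of all promoters. TGTGGT, searched likewise, was found in that of Ogn and in 16.8% of all.

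Read depth, recovered from the values, was 7.53 M reads in WT replicate 1, 30.9 to 47.0 M in the other 8 libraries of the VitC experiment and 28.6 to 49.8 M in the Tet libraries. Gulo, the gene mutated in VitC+ and VitC+/- mice, was near 0 everywhere, at 0.543, 0.438 and 0 scaled RPKM in the WT libraries and 0.0123 to 0.242 in the others, so the labels could not be checked with it. Tet1 was at 532 to 773 normalized counts in the libraries labelled Tet1 cKO and 374 to 435 in Ctrl, and Tet2 at 1834 to 2245 in those labelled Tet2 cKO and 2236 to 2512 in Ctrl. In the libraries labelled Tet1/2 cKO, Tet1 was at 415 to 485 and Tet2 at 1851 to 2970. A count over the whole gene in bulk femur RNA does not check the loss of floxed exons in limb mesenchyme. All 8 osteoblast markers, among them Bglap (osteocalcin) and Dmp1, passed the filter in the VitC femurs, as did all 5 skeletal muscle markers, whose summed level ran from 5.33 to 917 scaled RPKM over the libraries. Mice, not cultures, are the replicates per the methods of the study, by which femurs were flushed and minced before RNA was taken. In bulk bone fewer cells of a type and less RNA per cell cannot be told apart.

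Levels were compared between the genes as RPKM, which is per length of transcript, divided by a scaling factor per library (scaled RPKM). In VitC+ femurs Bgn was highest at 418 ± 108 (SD, n = 3), followed by Dcn at 213 ± 65.98 and Lum at 90.7 ± 33.1. The libraries of these 3 genes did not overlap. Chad followed at 49.6 ± 73.7, Fmod at 21.2 ± 15.4, Omd at 13.7 ± 7.56, Ogn at 11.3 ± 2.58, Aspn at 6.30 ± 2.07 and Prelp at 5.99 ± 4.13, and neighbours in this order from Lum to Prelp overlapped. Kera, the keratan sulfate proteoglycan of the cornea, was listed at 0, 0.208 and 0.0419 scaled RPKM in VitC+ and at 0.0701 or less in the other 6 libraries, and was below the filter of an RPKM of 1 in 3 libraries. The other 9 members passed it.

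**Figure D1:**
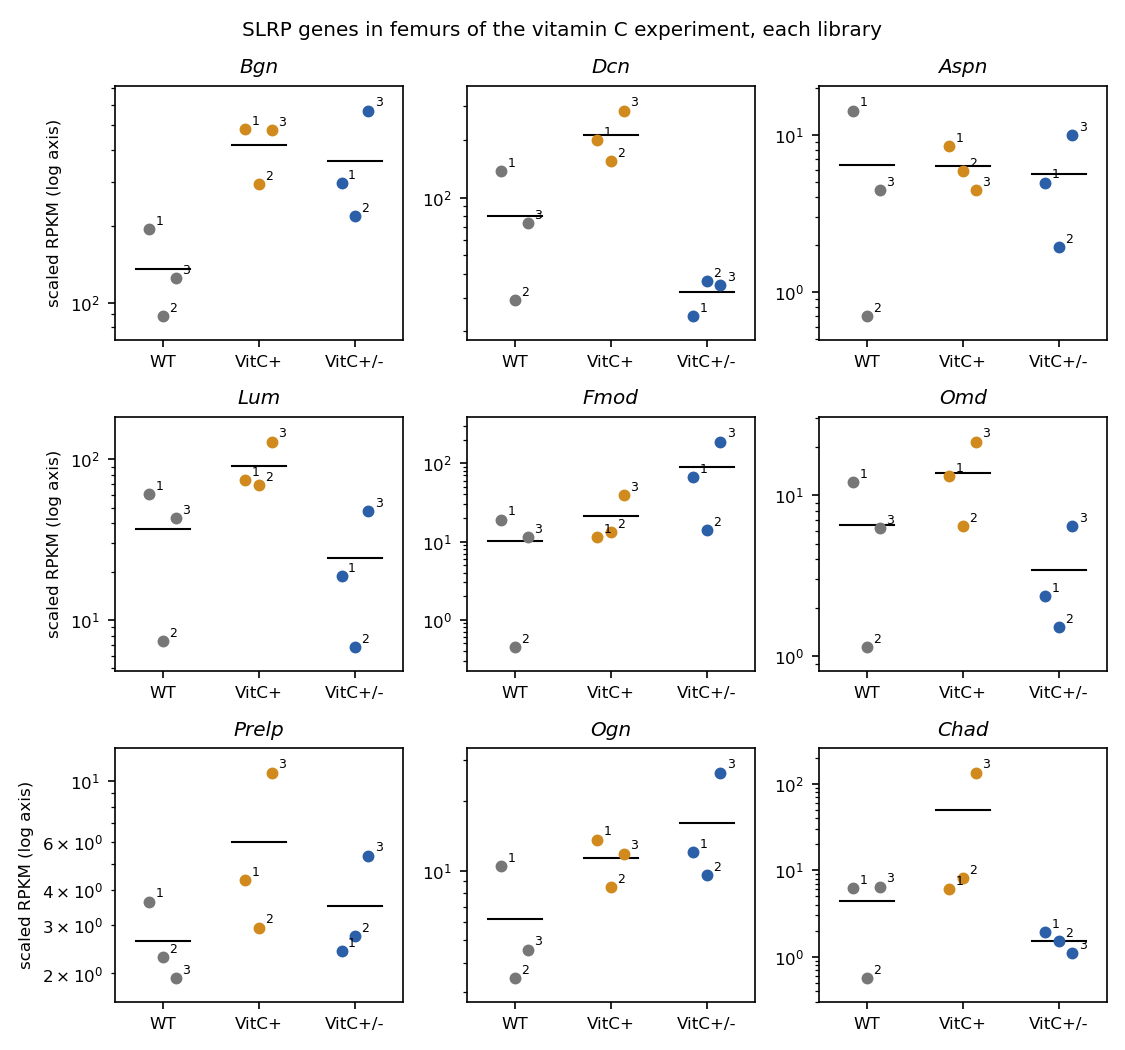
Scaled RPKM of the 9 SLRP genes that passed the filter (all but Kera) in each femur library of WT, VitC+ and VitC+/- mice, on a log axis with 1 panel per gene; points are libraries and bars are group means (n = 3). The 3 VitC+/- libraries of Dcn sit between 24.2 and 36.8, below the 3 VitC+ libraries at 155 to 285, while those of Bgn overlap with VitC+.

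Withdrawal of VitC was assessed by comparing VitC+/- with VitC+ femurs. Of the 9 tested members only decorin passed the test, with a level 6.47-fold lower. Chondroadherin, lumican and osteomodulin were lower in mean by 3.72-fold or more and missed the threshold, biglycan and osteoglycin differed by 1.22-fold and 1.29-fold without passing it, and fibromodulin had a higher mean with a wide spread. Thus 1 of 9 tested members fell and 0 rose, beside 7.96% of the 12571 tested genes that fell and 5.50% that rose (limma, adjusted p below 0.05). At an unadjusted p under 0.05, 4 members were lower and 0 higher, beside 16.3% and 14.9% of all tested genes. The median log2 difference was -0.59 over the 9 members and 0.01 over all tested genes.

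Dcn, which binds the surface of collagen I fibrils, was at 199, 155 and 285 scaled RPKM in VitC+ and 24.2, 36.8 and 35.0 in VitC+/- femurs. The highest VitC+/- library was thus far below the lowest VitC+ library. Its log2 difference was -2.69 ± 0.48 (SE; adjusted p = 0.0101, limma). Dcn passed the threshold in all 14 alternative settings, with differences of -2.90 to -2.46 and adjusted p from 0.00248 to 0.0462.

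Bgn, the closest relative of Dcn, was at 484, 293 and 477 scaled RPKM in VitC+ and 296, 219 and 571 in VitC+/- libraries. The groups overlapped over most of their range, and the log2 difference was -0.29 ± 0.39 (adjusted p = 0.656, limma). Aspn, which competes with decorin for collagen, ranged from 4.47 to 8.55 in VitC+ and from 1.94 to 9.98 in VitC+/- (log2 difference -0.35, adjusted p = 0.804, limma). The members of class I therefore differed from each other in their values, with Dcn alone past the threshold.

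In class II, Lum was at 74.6, 68.7 and 129 scaled RPKM in VitC+ and 18.8, 6.82 and 47.8 in VitC+/- libraries. Each VitC+/- library was below each VitC+ library, yet the spread was wide and the log2 difference of -2.21 ± 0.81 missed the threshold (adjusted p = 0.0981, limma). Omd, a proteoglycan of mineralised bone matrix, was at 13.2, 6.41 and 21.5 in VitC+ and 2.38, 1.53 and 6.47 in VitC+/-, where the groups touched (log2 difference -1.89 ± 0.74, adjusted p = 0.116, limma). Prelp, an anchor between basement membrane and matrix, ranged from 2.93 to 10.7 and from 2.41 to 5.34. Without WT replicate 2, which is in the shared fit, Lum and Omd passed the threshold (adjusted p = 0.0393 and 0.0468, limma).

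Fmod, which shares its site on collagen I with lumican, was at 11.3, 13.3 and 38.9 scaled RPKM in VitC+ and 66.1, 13.97 and 188 in VitC+/- libraries. Replicates 1 and 3 of VitC+/- were above all VitC+ libraries and replicate 2 was among them. The log2 difference was 1.61 ± 1.18 (adjusted p = 0.389, limma), and 0.74 without VitC+/- replicate 3. The 8 tendon and fibroblast markers summed to 190, 57.7 and 478 in the VitC+/- libraries, in the same order as Fmod, and to 85.2 to 129 in VitC+. Of the 5 of them that were tested, 1 fell (Pi16) and 0 rose, and the tendon genes Tnmd and Mkx were below the filter. Their part in the values of Fmod was not tested.

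Ogn was at 13.6, 8.52 and 11.8 scaled RPKM in VitC+ and 12.02, 9.57 and 26.5 in VitC+/- libraries, with a log2 difference of 0.37 ± 0.44 (adjusted p = 0.603, limma). Chad, which binds collagen and integrins in cartilage, was at 6.08, 8.02 and 135 in VitC+ and 1.93, 1.51 and 1.09 in VitC+/-. All VitC+/- libraries were below all VitC+ libraries, but VitC+ replicate 3 was far above the other two. The log2 difference was -3.31 ± 1.09 (adjusted p = 0.0733, limma) and -1.92 without that library. The 7 chondrocyte markers summed to 134, 152 and 434 in VitC+, again with replicate 3 highest, to 32.3 to 47.0 in VitC+/- and to 36.1 to 97.6 in WT. Of the 5 that were tested, Col2a1 (collagen II) fell and the others missed the threshold, and the part of cartilage in the level of Chad was not tested.

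Libraries of VitC+/- lay entirely below those of VitC+ for 3 of 9 members (Dcn, Lum and Chad), beside 20.1% of all tested genes, and entirely above for 0 of 9, beside 20.5%. Osteoblast markers moved in the same direction as Dcn, with 4 of 8 lower, 0 higher and a summed level of 2032 to 4415 in VitC+ and 414 to 1473 in VitC+/-. Osteoclast markers moved the other way, with 3 of 4 higher and sums of 1828 to 2523 and 2866 to 6326. The part of either in the SLRP levels was not tested.

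**Figure D2:**
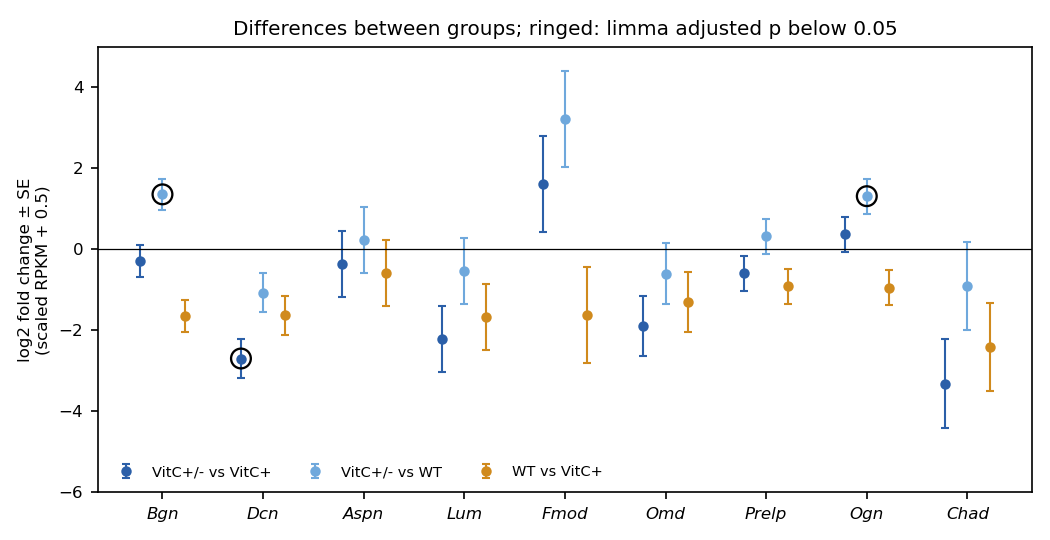
Log2 difference of each of the 9 tested SLRP genes in the 3 comparisons of femur groups, with bars of 1 standard error; ringed points passed an adjusted p of 0.05 (limma). Dcn at -2.69 is the only ringed point of VitC+/- against VitC+, and Bgn and Ogn are the ringed points of VitC+/- against WT.

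The same VitC+/- libraries were next set beside WT femurs of mice that make VitC. Here Bgn and Ogn rose by 2.57-fold and 2.49-fold. Of the 9 tested members 2 rose and 0 fell, beside 15.3% of all tested genes that rose and 15.7% that fell (limma, adjusted p below 0.05). At an unadjusted p under 0.05, 3 members were higher and 0 lower, beside 22.1% and 21.7% of all tested genes. Markers of other cells moved in the same comparison. Osteoclast markers rose for 4 of 4 genes, with sums of 748 to 819 in WT and 2866 to 6326 in VitC+/-, endothelial markers for 3 of 3 (32.6 to 37.6 and 54.6 to 80.1) and adipocyte markers for 3 of 4 (99.7 to 185 and 294 to 2293). Neutrophil markers fell for 4 of 4 genes (27727 to 36129 in WT and 3527 to 12186 in VitC+/-), as did B cell markers for 4 of 4 (17.0 to 56.9 and 3.15 to 6.72). Of 8 osteoblast markers 1 rose and 2 fell (321 to 1832 and 414 to 1473). The part of these markers in the SLRP values was not tested.

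Bgn was at 195, 88.8 and 125 scaled RPKM in the WT libraries, all below the VitC+/- libraries given above, and the log2 difference was 1.36 ± 0.39 (adjusted p = 0.0273, limma). It was the only 1 of 9 members whose VitC+/- libraries lay entirely above WT, beside 21.4% of all genes, and 0 of 9 lay entirely below, beside 21.3%. Ogn was at 10.5, 3.45 and 4.57 in WT, where WT replicate 1 overlapped with VitC+/- (log2 difference 1.32 ± 0.44, adjusted p = 0.0458, limma). Fmod was at 19.0, 0.453 and 11.4 in WT, with a log2 difference of 3.23 ± 1.18 that missed the threshold (adjusted p = 0.064, limma).

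Dcn was at 137, 29.1 and 73.7 in WT, where replicate 2 was within the range of VitC+/-, and its log2 difference was -1.07 ± 0.48 (adjusted p = 0.116, limma). WT replicate 2 was the lowest of all 9 libraries for Bgn, Aspn, Fmod, Omd, Ogn and Chad. Without it the call of Bgn was lost (adjusted p = 0.0759), that of Ogn was lost (0.126) and Dcn fell with a log2 difference of -1.66 (0.00967, all limma). Bgn also lost its call without WT replicate 3 or VitC+/- replicate 1 or 3, Ogn lost it without any of the libraries but WT replicate 1 and VitC+/- replicate 2, and Fmod passed without either of those 2.

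WT against VitC+ compares mice with their own and with supplied VitC. No gene passed the threshold in either direction (0.00% lower and 0.00% higher, limma), while 2714 genes had an unadjusted p under 0.05. All 9 tested SLRPs were lower in mean in WT, with a median log2 difference of -1.62, beside 0.02 over all genes. Bgn was 3.14-fold lower (adjusted p = 0.0862, limma), Dcn 3.08-fold (0.123) and Lum 3.18-fold (0.268). WT libraries lay entirely below VitC+ for these 3 of 9 members, beside 15.0% of all genes, and entirely above for 0, beside 13.4%. Without WT replicate 1, the shallowest library, Bgn and Dcn fell (adjusted p = 0.037 and 0.0343, limma). Osteoblast markers were lower in WT in mean for 8 of 8 genes, 0 of which passed the threshold, and their part was not tested. The 3 comparisons share libraries, so their values are not independent of each other.

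The make-up of the SLRP transcripts was described next as each gene's percent of the summed level of all 10, and by ratios of genes within a library. These quantities were chosen with the levels known and carry no test. Bgn made up 51.4 ± 13.0% (SD, n = 3) of the sum in WT, 51.5 ± 8.29% in VitC+ and 69.2 ± 5.22% in VitC+/-. Dcn made up 26.1 ± 4.13%, 25.9 ± 1.59% and 7.36 ± 4.56%. Fmod made up 2.87 ± 2.19%, 2.42 ± 1.06% and 13.8 ± 8.30%, and Lum 11.4 ± 5.22%, 11.0 ± 1.62% and 4.02 ± 1.55%. Mean shares of these genes were thus close in WT and VitC+, although the summed level was 290 ± 163 and 829 ± 275. For Dcn, Fmod and Lum the shares of all VitC+/- libraries lay outside the ranges of both other groups. The Bgn share of WT replicate 2 was 66.3%, within the VitC+/- range of 64.1 to 74.5%. The summed level of VitC+/- was 538 ± 313, and its libraries overlapped with those of both other groups.

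The log2 ratio of Bgn over Dcn was 0.95 ± 0.57 in WT, 0.98 ± 0.27 in VitC+ and 3.39 ± 0.75 in VitC+/-. For Fmod over Lum it was -2.19 ± 0.75, -2.24 ± 0.48 and 1.58 ± 0.52. In both ratios all VitC+/- libraries lay above all libraries of VitC+ and WT, and WT and VitC+ overlapped. Both class II genes of the second ratio code for proteins that bind collagen I, and their order was turned: Lum was above Fmod in each WT and VitC+ library and below it in each VitC+/- library.

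**Figure D3:**
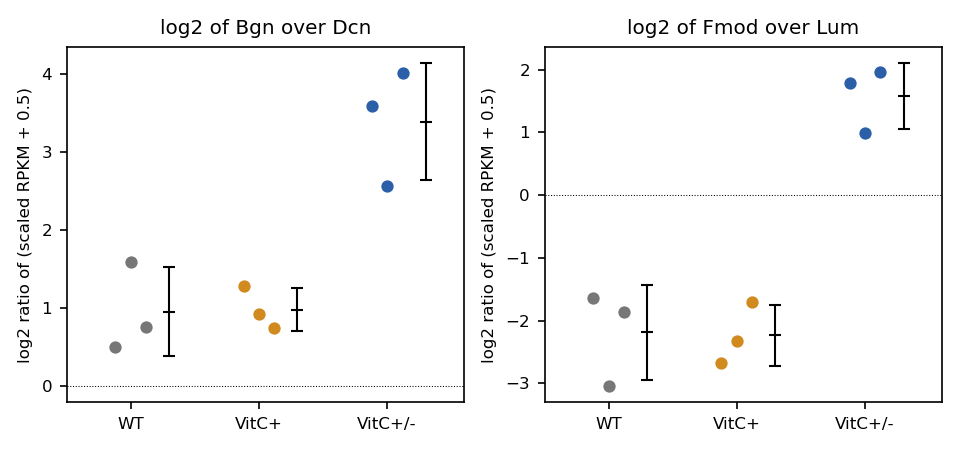
Log2 ratios of Bgn over Dcn and of Fmod over Lum in each femur library, with points for libraries and, beside them, the group mean with bars of 1 SD (n = 3). The VitC+/- libraries of Fmod over Lum lie above 0 and those of WT and VitC+ below 0, and the WT and VitC+ means of Bgn over Dcn are 0.95 and 0.98.

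Over the 9 libraries, pairs of members with the most similar log2 levels were Lum and Omd (Pearson r = 0.96) and Bgn and Ogn (r = 0.91). The genes most like Dcn were Tmtc2, Lpar3 and Pnkd (r = 0.98, 0.98 and 0.97). Those most like Fmod were Col3a1 (collagen III), Tmem9 and Itgbl1 (r = 0.99, 0.96 and 0.95), and those most like Chad were the cartilage genes Cytl1 and Clec3a (r = 0.99 and 0.98) and 3110079O15Rik (r = 0.96). These values describe 9 libraries that share group and tissue make-up, and carry no test.

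A total of 8 further family members were followed beside the 10. Podnl1 (podocan-like 1) was at 19.2, 15.2 and 22.02 scaled RPKM in VitC+ and 9.33, 7.53 and 13.1 in VitC+/- and fell by 0.90 on the log2 scale (adjusted p = 0.0399, limma). Podn (podocan) was at 0.385 to 1.12 in VitC+ and 1.57 to 6.63 in VitC+/- and missed the threshold (log2 difference 1.46, adjusted p = 0.0559, limma), and it rose against WT (2.19, adjusted p = 0.0063). Tsku (tsukushi) rose against WT as well (log2 difference 1.54, adjusted p = 0.0105, limma) and did not pass against VitC+ (0.13, adjusted p = 0.824). Ecm2 had a log2 difference of -1.07 against VitC+ (adjusted p = 0.0724, limma). Epyc, Optc, Nyx and Chadl were below the filter, so 1 of 4 tested genes fell and 0 rose in VitC+/- against VitC+.

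Genes that build the sugar chains of SLRPs were compared between VitC+/- and VitC+, where 7.96% of all tested genes fell and 5.50% rose. Of 6 genes for the linkage to the core protein 0 passed the threshold, with 2 at an unadjusted p under 0.05 (limma). Of 15 tested genes for chondroitin and dermatan sulfate 2 fell, Ust (uronyl 2-O-sulfotransferase, log2 difference -1.33, adjusted p = 0.0189, limma) and Chst3 (a 6-O-sulfotransferase, -1.25, adjusted p = 0.0316). Of 6 for keratan sulfate 2 fell, Chst5 (-1.68, adjusted p = 0.00861) and B4galt4 (-0.65, adjusted p = 0.0287), and B4galt1 rose (0.56, adjusted p = 0.0241). Chst5, which sulfates keratan chains, was at 1.76, 2.15 and 2.78 scaled RPKM in VitC+ and 0.366, 0.408 and 0.259 in VitC+/-. None of 2 tyrosine sulfotransferases and 3 propeptide proteases passed, and 0 of these 5 had an unadjusted p under 0.05. Against WT 15.7% of all tested genes fell and 15.3% rose. There 3 linkage genes fell and 2 rose, 1 chondroitin or dermatan sulfate gene fell, and 2 keratan sulfate genes fell and 1 rose. B4galt4 fell again (log2 difference -0.93, adjusted p = 0.00308, limma). Ust (-0.08), Chst3 (-0.88), Chst5 (-0.27) and B4galt1 (0.27) missed the threshold against WT.

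Among 10 tested collagen partners Col11a1 fell and 0 rose. Col1a1 and Col1a2 (collagen I) had log2 differences of -2.34 and -2.42 and missed the threshold (adjusted p = 0.0755 and 0.0596, limma). At an unadjusted p under 0.05, 3 of the 10 were lower and 1 higher, beside 16.3% and 14.9% of all tested genes. Col11a1 (collagen XI) was at 102, 86.7 and 160 scaled RPKM in VitC+ and 12.1, 2.81 and 35.9 in VitC+/- (log2 difference -3.30, adjusted p = 0.0224, limma). Among 11 genes of signalling partners Lrp1, an endocytic receptor that takes up decorin, rose and 0 fell. Lrp1 was at 14.7, 9.89 and 17.4 in VitC+ and 28.9, 37.9 and 46.7 in VitC+/- (log2 difference 1.41, adjusted p = 0.00739, limma). Against WT 5 of the 10 collagen partners rose and 0 fell, and 6 of the 11 signalling partners rose and 0 fell. Of all tested genes 15.3% rose and 15.7% fell there. Col1a1 and Col1a2 had log2 differences of -0.16 and -0.37 against WT (adjusted p = 0.892 and 0.736, limma). Col11a1 missed the threshold (-1.49, adjusted p = 0.151) and Lrp1 rose (2.08, adjusted p = 0.000631).

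Loss of Tet genes was assessed in the second set of femurs, as normalized counts, which are not per length and are compared here only between libraries of 1 gene. None of the 10 SLRPs passed the threshold in Tet1 cKO, Tet2 cKO or Tet1/2 cKO against Ctrl with limma, edgeR or DESeq2. Of all 16780 genes tested with limma, 0.00596% fell and 0.00596% rose in Tet1 cKO and again in Tet2 cKO, and 0.00% fell and 0.00% rose in Tet1/2 cKO. In Tet1/2 cKO, 847 genes had an unadjusted p under 0.05, 778 with edgeR, and DESeq2 called 9 lower and 1 higher.

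In Tet1/2 cKO all 10 members had a lower mean on the log2 scale than in Ctrl, with a median difference of -0.95, beside -0.01 over all genes. Bgn was at 28432, 27222 and 28453 normalized counts in Ctrl and 11417, 21779 and 18041 in Tet1/2 cKO. Chad was at 693, 1329.9 and 1066 in Ctrl and 60.3, 218 and 457 in Tet1/2 cKO, with a log2 difference of -2.44 ± 0.97 (unadjusted p = 0.0286, adjusted p = 0.723, limma), the only 1 of 10 members with an unadjusted p under 0.05, beside 3.28% of all genes that were lower at this p. For these 2 genes each Tet1/2 cKO library was below each Ctrl library. Lum and Omd behaved likewise, so the libraries did not overlap for 4 of 10 members, beside 10.0% of all genes, and 0 of 10 were entirely higher, beside 7.37%.

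Dcn was at 26867, 31182 and 44176 in Ctrl and 12119, 27099 and 18772 in Tet1/2 cKO, where the groups overlapped (log2 difference -0.86 ± 0.59, adjusted p = 0.723, limma). Fmod was at 2134, 4005 and 5575 in Ctrl and 191, 870.3 and 3039 in Tet1/2 cKO, again with overlap (-2.18 ± 1.01, adjusted p = 0.723). Osteoblast markers summed to 62514 to 107820.0 in Ctrl and 25167 to 52154 in Tet1/2 cKO. All 7 chondrocyte markers had a negative log2 difference, 5 with an unadjusted p under 0.05, and summed to 6747 to 27099.9 in Ctrl and 4267 to 9589 in Tet1/2 cKO. Neutrophil markers summed to 454881 to 719128 and 660088 to 1482790.0. Skeletal muscle markers summed to 78302 to 366146 in Ctrl and to 3737, 2033 and 315499 in Tet1/2 cKO, with a median log2 difference of -3.89. Tendon and fibroblast markers summed to 10157 to 30964 in Ctrl and to 8657, 9348.5 and 24678 in Tet1/2 cKO, in the same order as Fmod. The part of these markers in the SLRP values was not tested.

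In the single knockouts the spread within a group was large. Aspn was at 30445 in Tet1 cKO replicate 1 and 20519.5 in Tet2 cKO replicate 1, and at 353 to 5226 in the other 10 libraries. Those 2 libraries also had the highest sums of tendon and fibroblast markers (112968 and 88270.3, beside 8657 to 30964 in the others) and of muscle markers (836288 and 1040040.0, beside 2033 to 500183). Dcn ran from 34657 to 90434 in Tet1 cKO, which overlapped with the range of Ctrl, and from 11568 to 66314 in Tet2 cKO, which held the whole range of Ctrl. Log2 differences lay between -0.79 (Chad) and 1.19 (Lum) in Tet1 cKO and between -0.57 (Kera) and 1.03 (Aspn) in Tet2 cKO, all with an adjusted p of 1.00 and none with an unadjusted p under 0.05 (limma).

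**Figure D4:**
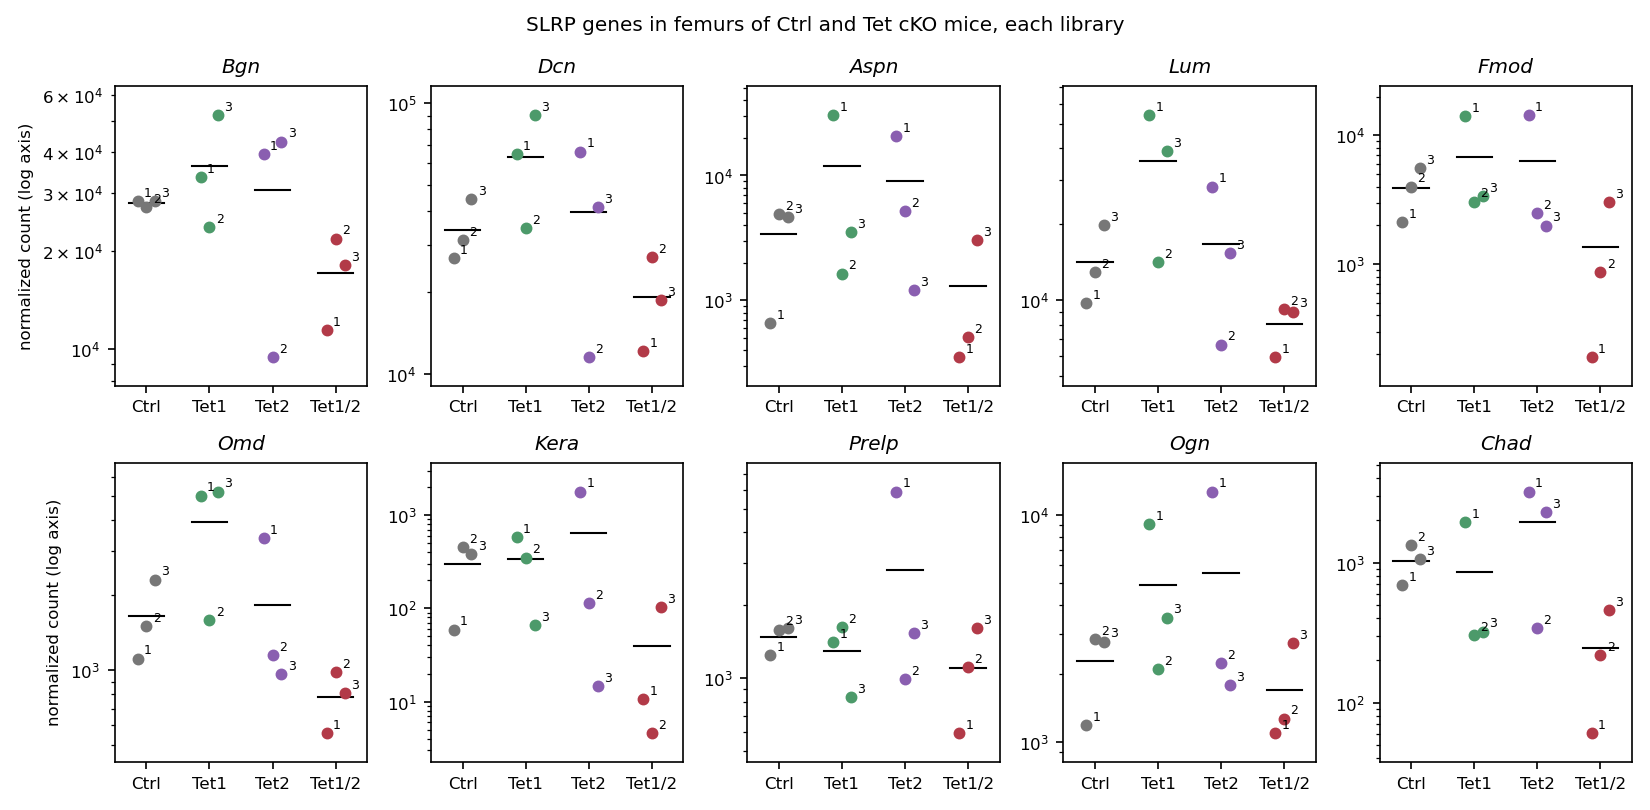
Normalized counts of the 10 SLRP genes in each femur library of Ctrl mice and of Tet1 cKO, Tet2 cKO and double knockout (Tet1/2 cKO) mice, on a log axis with 1 panel per gene; points are libraries, numbered by replicate, and bars are group means (n = 3). Aspn is at 30445 and 20519.5 in the first replicates of Tet1 cKO and Tet2 cKO, and Tet1/2 cKO libraries of Bgn, Lum, Omd and Chad lie below all Ctrl libraries.

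5hmC was then compared over each gene and 30 kb on either side, as the length covered by listed peaks. Each group has 1 list for all its libraries, so these values have no replicate check, and a covered length depends on how much was called in a list. In femurs, peaks covered 175 Mb in VitC+/- and 175 Mb in VitC+. Covered length was less in VitC+/- at 7 of 9 SLRP loci, beside 60.1% of all genes with peaks. The list holds no peak on the X chromosome in either group, so Bgn could not be assessed. The median log2 ratio was -0.17 over the 9 loci and -0.14 over all genes.

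Fmod stood lowest, where 12 peaks covered 4009 bp in VitC+ and only 4 covered 1823 bp after withdrawal (log2 ratio -1.14), and 2.54% of all genes had a lower ratio. Of its 12 peaks in VitC+, 8 had no overlapping peak in VitC+/-, including the intron peaks whose sequences are given above, which had fold enrichments of 5.36 and 5.31. The second of them was listed in the other femur set too, at 4.49 in Ctrl and 6.16 in Tet1/2 cKO. The mean fold enrichment of the listed peaks was 4.82 in VitC+ and 5.65 in VitC+/-. The share of peaks without overlap in the other list was not computed over all genes, for this locus or those below. RNA of Fmod was at 11.3 to 38.9 and 13.97 to 188 scaled RPKM in these groups.

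The Dcn locus was densely covered in both groups, with 42 peaks on 31944 bp in VitC+ and 46 on 28380 bp in VitC+/- (log2 ratio -0.17). Only 2 of the 42 had no overlap in the other list. The intron peak whose sequence is given above (chr10:97499469-97500061) had a fold enrichment of 14.4 in VitC+ and 11.7 in VitC+/-. It was listed in all 6 sets of 5hmC peaks, at 6.17 in Ctrl, 3.61 in Tet1/2 cKO, 6.99 in MC3T3-E1 with VitC and 4.92 without. The mean fold enrichment of the listed peaks at Dcn was 6.64 in VitC+ and 5.89 in VitC+/-. At the other assessed SLRP loci the mean fold enrichment was higher in VitC+/-, and it was not compared with that of all genes. The RNA of Dcn, which was 6.47-fold lower, stood beside this lower mean fold enrichment and a ratio of covered length near the median of all genes. Lum went from 27 peaks (16290 bp) in VitC+ to 21 (13859 bp) in VitC+/-, Prelp from 12 (4186 bp) to 8 (2642 bp), and Omd and Ogn had a little more covered length in VitC+/-.

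In Tet1/2 cKO femurs the peaks covered 123 Mb, beside 273 Mb in Ctrl. Covered length was less at 10 of 10 SLRP loci, beside 97.9% of all genes, and the median log2 ratio was -1.41 for the members and -1.32 for all genes. At Dcn 28 peaks over 28547 bp in Ctrl stood beside 15 over 10617 bp, with mean fold enrichments of 4.66 and 3.95. Fmod had the highest ratio of the members (-0.67, 24 peaks over 29970 bp and 18 over 18831 bp) and Kera the lowest (-1.79). The median of the members was thus close to that of all genes.

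In MC3T3-E1 cells the peaks covered 149 Mb without VitC and 197 Mb with VitC. Covered length was less without VitC at 9 of 10 SLRP loci, beside 60.4% of all genes, with a median log2 ratio of -1.40 for the members and -0.90 for all genes. The lowest ratios were those of Omd and Aspn, neighbours on chromosome 13. Ogn in the same cluster was at -1.47, above Fmod (-1.73) and Chad (-1.64). At Omd 37 peaks over 31678 bp with VitC stood beside 12 over 7463 bp without (-2.09), and 29 of the 37 had no overlap in the other list. At Aspn 34 peaks over 33220 bp stood beside 16 over 8850 bp (-1.91), much of it shared with the window of Omd. Bgn had more covered length without VitC (3266 and 2546 bp).

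**Figure D5:**
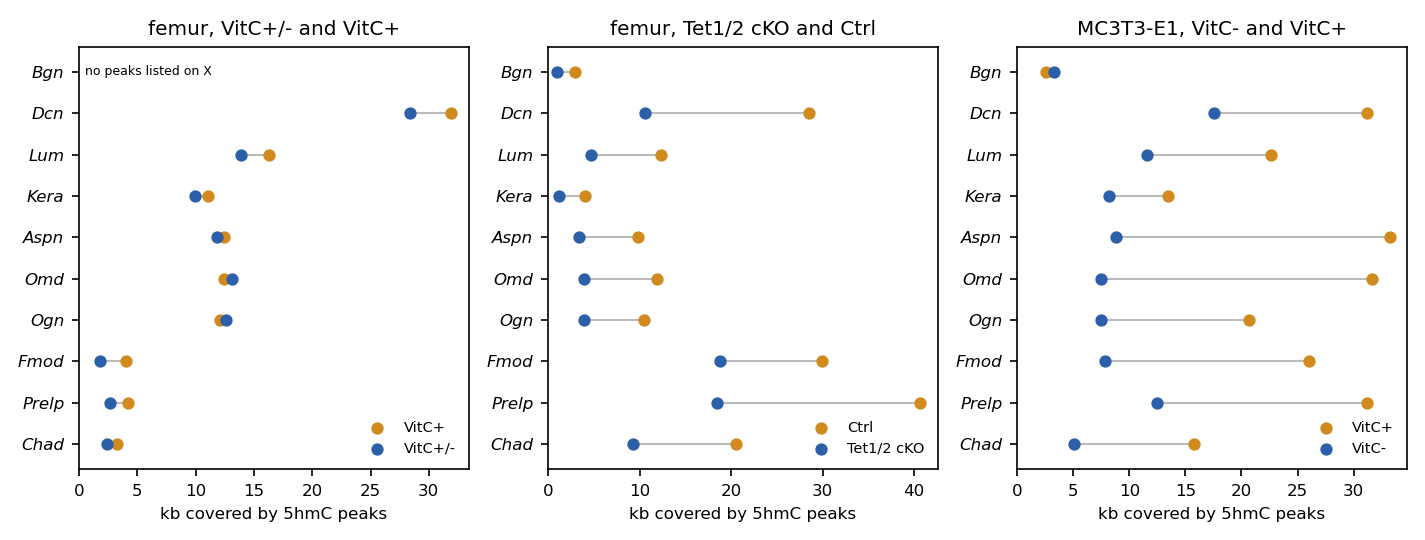
Length covered by listed 5hmC peaks (kb) over each SLRP gene and 30 kb on either side, in 3 panels for femurs of VitC+ and VitC+/- mice, femurs of Ctrl and Tet1/2 cKO mice and MC3T3-E1 cultures of both kinds; each point is 1 list without replicates. All 10 loci have less in Tet1/2 cKO than in Ctrl and 9 of 10 less in MC3T3-E1 cells without VitC, and no peaks are listed on the X chromosome in the first panel.

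Peaks over the start sites went the other way for some members. Without VitC, the start sites of Dcn, Lum and Fmod lay under a 5hmC peak (3 of 10), beside 2.46% of all genes. With VitC that of Prelp did (1 of 10), beside 5.00%. The Prelp site is the outer end of the gene (chr1:133930102), which lies outside the promoter whose CpG were counted above (chr1:133921352-133921651). The start-site peaks had fold enrichments of 4.67 at Dcn (chr10:97478250-97479567), 11.2 at Lum (chr10:97565009-97565909) and 15.8 at Fmod (chr1:134036110-134037353), and the last holds the upstream sequence given above. With VitC a single peak (chr1:134039890-134046444, fold enrichment 13.6) ran over much of the Fmod gene and its second intron sequence. The first intron sequence overlapped a peak without VitC (fold enrichment 3.64). In femurs no member had a start site under a peak. The share of all genes was 1.29% in VitC+/- and 1.72% in VitC+, lists without peaks on the X chromosome. It was 2.57% in Tet1/2 cKO and 5.43% in Ctrl.

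H3K27me3, laid down by Polycomb proteins, and H3K9me3, a mark of heterochromatin, were assessed in MC3T3-E1 cells only. These cultures were of 7 days per the methods of the study, the day that the names of the listed peaks carry as well, and so were shorter than the 28 days of the 5hmC cultures. H3K27me3 peaks lay in the windows of Bgn, Fmod and Prelp only, all outside the genes. The other 7 windows had 0 in both lists, while 14920 of 21521 genes had such peaks in either list. Of these 7, the windows of Dcn, Lum and Kera overlap, as do those of Aspn, Omd and Ogn. Covered length was more without VitC at 3 of 3, beside 90.9% of all genes with such peaks. At Fmod it was 5966 bp without and 2774 bp with VitC, and at Bgn 1853 bp and 0. H3K9me3 peaks lay in the windows of 9 members and of 13951 of 21521 genes. H3K9me3 covered more without VitC at 8 of 9 loci with peaks, beside 76.5% of all genes with such peaks. It covered a little less at Lum (7372 and 7877 bp). At Dcn 6 peaks over 8367 bp with VitC, 2 of them in introns, stood beside 11 over 20080 bp without VitC. RNA of these cells was not analysed here.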

How the data were processed

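RNA-seq of 9 VitC femur and 12 Tet femur libraries and 10 peak lists (6 of hMeDIP-seq, 2 each of H3K27me3 and H3K9me3) were used. Input samples have no peak list and were not analysed on their own. For the VitC femurs the authors deposited RPKM per library. The Tet femur values are normalized counts, a signal that the authors obtained by dividing gene counts by size factors of DESeq2. Per the labels and the submitters' processing notes, reads were trimmed with Trim Galore 0.4.3.1, checked with FastQC 0.72, aligned to mm10 with STAR 2.6.0b-1 (RNA) or BWA 0.7.15.1 (DNA), counted with featureCounts 1.6.3 and normalized with DESeq2 2.11.40.2, and peaks were called with MACS2 2.1.1.20160309.6. The fold enrichment (a ratio over local background) and the -log10 q of peaks are as deposited by the authors, with 1 list per group.

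Libraries were put on 1 scale by dividing RPKM by median-of-ratios factors (0.746 to 1.11), after leaving out 69 entries that share a name, and log2 was taken after adding 0.5. The 12571 genes that reached an RPKM of 1 in 3 libraries entered limma 3.58.1 (eBayes with trend, R 4.3.3) over all 9 libraries. Tet values were tested as log2(normalized count + 1), for genes with at least 10 in 3 libraries (16780), over all 12. Log2 differences are on these scales and understate low genes. P-values were adjusted over all genes tested (Benjamini-Hochberg, threshold 0.05). Depth was recovered from steps in the values: 91.3 to 93.4% of low RPKM values came out whole within 0.1 read, and 100% of the Tet values within 0.01, which gave reads for edgeR 4.0.16 and DESeq2 1.42.0 as alternatives. Whole reads were rounded before these tests. The limma step was tested on simulated data.

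A peak was counted at a locus when at least 1 bp lay within the RefSeq gene or 30 kb of it, and as matched when it shared 1 bp with a peak of the other list. The start site is the outer 5′ end of the RefSeq gene. Members, ratios and lists were chosen with earlier results of these data known. Named are all 10 members, the 8 other SLRPs, genes of the other lists past the threshold in VitC+/- against VitC+ (up to 4 a list), the 3 genes most like Dcn, Fmod and Chad, and Gulo, Tet1 and Tet2. Markers named beside members (Bglap, Dmp1, Col2a1, Pi16, Tnmd, Mkx) and the collagen genes Col1a1 and Col1a2 were named after their values were seen. Alternatives changed the scaling, pseudocount, filter, libraries in the fit, replicate block, test, peak threshold, window and overlap, and left out each library in turn.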

Additional observations from a re-analysis of the deposited data

How the results depend on the processing

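Dcn in VitC+/- against VitC+ kept its direction and its call in all 14 alternatives. The count of SLRPs lower in this comparison was 4 with the replicate number as a block (replicate block; Lum, Omd and Chad added), and in WT against VitC+ it was 1 with the block (Bgn). The count higher in VitC+/- against WT went from 2 to 3 with the block (Fmod added, adjusted p = 0.0101, limma). The block changed no other count of SLRPs. Same-numbered libraries did not deviate together throughout, with correlations from -0.19 to 0.47 in the VitC femurs and from -0.49 to 0.23 in the Tet femurs. For replicate 1 of WT and VitC+ the correlation was 0.47, above the highest with another number (-0.15). For replicate 3 of these groups it was -0.077, below 0.42. Between VitC+/- and VitC+ it was 0.37 for replicate 3, above 0.015, and 0.055 for replicate 2, above 0.038. For replicate 1 of VitC+/- and VitC+ it was -0.068, below 0.32. The numbers were not taken as pairs in the main fit, and whether they mark a shared factor was not tested. The count of SLRPs higher in VitC+/- against WT was 0 without the filter on low values and 1 with only the libraries of the 2 groups. The cause of these differences was not tested.

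Leaving out 1 library at a time, the count of SLRPs lower was 1 to 3 in VitC+/- against VitC+, 0 to 1 in VitC+/- against WT and 0 to 2 in WT against VitC+, and the count higher in VitC+/- against WT was 0 to 3. No member was called in the Tet femurs under any alternative. Log2 differences that changed sign when 1 library was left out had these ranges. In VitC+/- against VitC+ it was -0.68 to 0.018 for Bgn, -0.85 to 0.20 for Aspn and -0.051 to 0.66 for Ogn. In VitC+/- against WT it was -1.44 to 0.15 for Lum, -1.42 to 0.043 for Omd and -0.72 to 1.09 for Aspn. In WT against VitC+ it was -1.44 to 0.37 for Aspn. In Tet1 cKO against Ctrl it was -0.80 to 1.05 for Kera, -0.035 to 2.07 for Aspn, -0.18 to 0.92 for Fmod and -0.44 to 0.045 for Prelp. In Tet2 cKO against Ctrl it was -0.54 to 0.56 for Bgn, -0.61 to 0.65 for Dcn, -0.42 to 0.62 for Lum, -0.70 to 0.73 for Fmod, -0.58 to 0.33 for Omd, -2.37 to 1.05 for Kera, -0.25 to 1.03 for Prelp, -0.079 to 1.33 for Ogn and -0.17 to 1.45 for Chad. None of these passed the threshold. In Tet2 cKO against Ctrl, edgeR turned Bgn (0.10), Dcn (0.18), Omd (0.11) and Kera (1.04) and so did DESeq2 (0.13, 0.22, 0.16 and 1.096), without a call.

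RPKM as deposited, without the scaling factor, moved the median of all genes to 0.13 in VitC+/- against VitC+, where 405 genes fell and 472 rose beside 1001 and 691, and to 0.12 in WT against VitC+. Against WT, 1151 fell and 1561 rose beside 1978 and 1923. With the block, 611 genes fell and 169 rose in WT against VitC+, beside 0 and 0. In Tet1/2 cKO DESeq2 called 9 genes lower and 1 higher beside 0 with limma, in Tet1 cKO 19 and 5, and in Tet2 cKO 9 and 4, beside 1 and 1 in each.

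The count of SLRP loci with less H3K27me3 length without VitC was 1 when peaks were counted. With H3K9me3 it was 2 with 10 kb windows, with peak midpoints and with peaks that had at least 0.5 of their length in the window. A -log10 q of at least 5 left no H3K9me3 peak at these loci, so it gave no value. Peak lists without replicates, 3 libraries a group and 7.53 M reads in WT replicate 1 limit the precision.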
